A study of Mus musculus with 8 samples.

Results

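The miRNAs described here are 10 that are dominant outside the kidney: 5 of neurons (mmu-miR-124-3p, mmu-miR-9-5p, mmu-miR-9-3p, mmu-miR-7a-5p and mmu-miR-128-3p), 3 of the pancreas (mmu-miR-375-3p, mmu-miR-216a-5p and mmu-miR-217-5p) and 2 of striated muscle (mmu-miR-1a-3p and mmu-miR-133a-3p). They are written below without the species prefix, and were chosen by name from the 1881 mouse miRNAs of the array, for the tissue in which they are abundant, with earlier results of these data known. Kidney total RNA of 4 control and 4 db/db mice was hybridised to 8 single-colour Agilent arrays, 1 sample to each, and arrays are numbered by the replicate number in the sample titles. The control samples carry the strain label C57BLKS/J Iar -m+/m+ and are titled dbm, and the db/db samples carry the label C57BLKS/J Iar -+Leprdb/+Leprdb, so whether the controls had a db allele was not settled. All were males aged 28 weeks and no treatment is named. db/db mice have no working leptin receptor and develop obesity and diabetes, and the comparison asks how kidney miRNA levels differ between these mice and their controls. Whether every sample was taken from its own animal is not labelled, so p-values reflect only how far these samples differ, which may be technical.

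miRNAs are short RNAs that guide Argonaute proteins to messenger RNAs through pairing of the seed, bases 2 to 8 counted from the 5′ end. miR-124, miR-9 and miR-128 are abundant in brain and act in neuronal differentiation. miR-7a is high in neuroendocrine cells, including those of the pancreatic islet. miR-375 is the best known islet miRNA, and miR-216a and miR-217 mark the acinar cells of the exocrine pancreas. miR-1 and miR-133 come from shared precursor transcripts in heart and skeletal muscle and act in muscle differentiation. Whole kidney holds nerves, vessels and blood beside its epithelium. In bulk RNA, fewer cells of a type and less of a miRNA per cell cannot be told apart.

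RefSeq mature sequences, on assembly GRCm38.p6, were found for 6 of the 10 miRNAs. They are shown 5′ to 3′ with the seed in capitals, because the seed is the part that pairs with targets and groups miRNAs into families.
miR-9-5p: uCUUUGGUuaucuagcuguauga
miR-9-3p: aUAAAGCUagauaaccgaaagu
miR-7a-5p: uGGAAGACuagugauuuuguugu
miR-128-3p: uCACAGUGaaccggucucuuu
miR-216a-5p: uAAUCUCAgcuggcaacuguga
miR-217-5p: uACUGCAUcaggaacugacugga
No 2 of these 6 shared a seed. Seed sharers were sought among other miRNAs of the array, a part of the 1608 with a RefSeq sequence. Only miR-7b-5p shared a seed with one of the 6, that of miR-7a-5p, and it was not detected on any array.

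Several of these miRNAs are copied at more than 1 locus, and the mature sequence does not tell the copies apart. miR-9 is encoded at Mir9-1 (5p arm at chr3:88215613-88215635, + strand), Mir9-2 (chr13:83738821-83738843, + strand) and Mir9-3 (chr7:79505279-79505301, + strand), which lie within the long noncoding RNA genes Gm3764, C130071C03Rik and Mir9-3hg. miR-7a-5p is encoded at Mir7-1 (chr13:58392841-58392863, - strand), inside Hnrnpk, a broadly expressed gene of an RNA-binding protein, and at Mir7-2 (chr7:78888295-78888317, + strand). miR-128-3p is encoded at Mir128-1 (chr1:128202404-128202424, + strand) inside R3hdm1 and at Mir128-2 (chr9:112118644-112118664, - strand) inside Arpp21. miR-216a-5p (chr11:28757018-28757039, + strand) and miR-217-5p (chr11:28763761-28763783, + strand) come from hairpins 6644 bases apart, counted from the end of one hairpin to the start of the next, on the same strand within the noncoding gene Gm40818. All these positions are those of GRCm38.p6. For miR-1a-3p and miR-133a-3p the array design gives, on build mm9, probe positions on chromosome 2 (180123802 to 180123822 and 180133146 to 180133163, + strand), among others.

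Each miRNA was read by 2 probes of 15 spots each, or by 4 shorter probes of 7 or 8 spots for miR-216a-5p and miR-217-5p. The longest probe of each detected miRNA with a RefSeq sequence is shown 5′ to 3′, since it shows which bases were read; the probe's 5′ end pairs with the 3′ end of the miRNA.
miR-9-5p probe: TCATACAGCTAGATAACCA
miR-9-3p probe: ACTTTCGGTTATCTAGCTT
miR-7a-5p probe: ACAACAAAATCACTAGTCTTCC
miR-128-3p probe: AAAGAGACCGGTTCACTGTG
These pair with bases 5 to 23, 4 to 22, 2 to 23 and 2 to 21 of their miRNAs. The probes of miR-7a-5p and miR-128-3p thus reach the whole seed, whereas the probe of miR-9-5p reaches 4 of its 7 bases. Since probes differ in length and affinity, the signals of different miRNAs were not ranked against each other.

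Of the 10 miRNAs, 4 were detected on all 8 arrays (miR-9-5p, miR-7a-5p, miR-128-3p and miR-1a-3p), miR-9-3p was detected on 6, and 5 were detected on none (miR-124-3p, miR-375-3p, miR-216a-5p, miR-217-5p and miR-133a-3p). By tissue, 4 of 5 neuronal, 0 of 3 pancreatic and 1 of 2 muscle miRNAs were detected on at least 1 array. Over the whole array, 390 of 1881 miRNAs (20.7%) were called detected somewhere and 269 everywhere. The scanner software's detection flag coincided on all 15048 pairs of miRNA and array with a signal over error above 3 for the best probe of the miRNA. The arrays detected 305 to 352 miRNAs in control and 289 to 358 in db/db samples. The kidney epithelium markers, 11 miRNAs such as miR-192-5p and miR-30a-5p, were all detected on all 8 arrays.

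**Figure D1:**
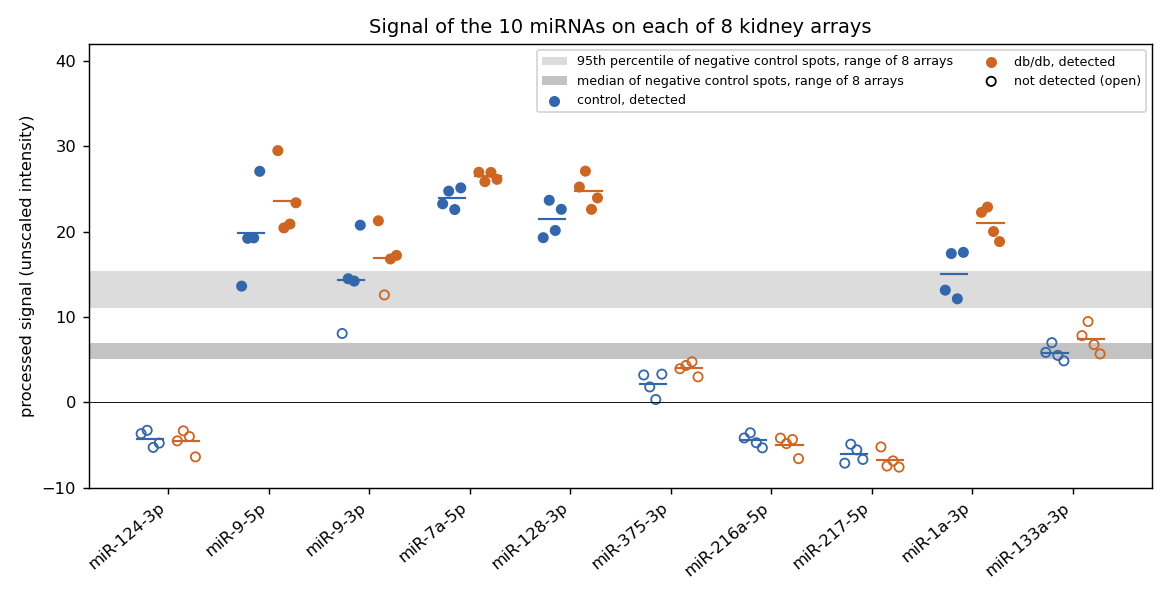
Processed signal (unscaled intensity, vertical axis) of the 10 miRNAs on each control (blue) and db/db (orange) array; filled points were detected, open points were not, and short lines are group means of 4 arrays. The bands give the range over 8 arrays of the median (5.08 to 6.95) and the 95th percentile (11.1 to 15.4) of 1000 negative control spots; miR-124-3p, miR-216a-5p and miR-217-5p lie below 0 on every array, and signals of different miRNAs are not comparable in level.

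The neuronal miRNA with no detected signal was miR-124-3p, the most abundant miRNA of mature neurons. Its processed signal lay between -5.29 and -3.28 in control and between -6.40 and -3.35 in db/db samples, below the median of the negative control spots (5.08 to 6.95) on every array. Its other arm, miR-124-5p, was not detected either. Undetected does not mean absent: each such miRNA has only an upper bound, set by the signal its own probes would have needed for a call.

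miR-9-5p was detected on every array. Its processed signal was 13.6, 19.2, 19.3 and 27.1 on control arrays 1 to 4 and 29.5, 20.4, 20.9 and 23.4 on db/db arrays 1 to 4. After scaling between arrays, the log2 level was 4.33 ± 0.30 in control and 4.48 ± 0.19 in db/db samples (SD, n = 4 each), and the groups overlapped. The lowest array was control replicate 1 and the highest were db/db replicate 1 and control replicate 4. The difference, db/db minus control, was 0.15 ± 0.16 on the log2 scale (SE), with a 95% interval of -0.21 to 0.51 and an adjusted p of 0.468 (limma, Benjamini-Hochberg). The lower bound lies below and the upper bound above 0, so no direction can be given.

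miR-9-3p, the other arm of the same hairpins, gave a processed signal of 8.07, 14.5, 14.2 and 20.8 on control arrays 1 to 4 and 21.3, 12.6, 16.8 and 17.2 on db/db arrays 1 to 4. It was called on 3 arrays of each group; control replicate 1 and db/db replicate 2 missed the call with a best ratio of signal to error of 2.78 and 2.92. The scaled log2 level was 3.83 ± 0.46 in control and 4.00 ± 0.25 in db/db samples (SD, n = 4 each), and these overlapped. It did not meet the requirement for the test, detection on all 4 arrays of a group. With other detection rules it was found on 4 arrays (1 control, 3 db/db; a probe with most spots well above background) or on 5 (2 control, 3 db/db; signal above the 95th percentile of the negative controls), while the other 9 miRNAs kept their number of arrays.

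The 2 arms of miR-9 varied together across arrays. Both were lowest on control replicate 1 and both took their 2 highest values on control replicate 4 and db/db replicate 1, so the spread crossed the groups. The log2 75th percentile of array signal before scaling was also lowest on control replicate 1 (8.40) and highest on db/db replicate 1 (8.73). It was 8.67 on control replicate 4, but also on db/db replicate 3, where the arms were at 4.31 (5p) and 3.99 (3p). The part of array-wide signal in the shared pattern was not tested. Over the 6 arrays on which the 3p arm was detected, the scaled signal differed from the lowest to the highest array 1.35-fold for the 5p and 1.32-fold for the 3p arm. Over all 8 arrays the range of the 5p arm was 1.73-fold, and none is given for the 3p arm, which was undetected at its lowest. The log2 difference between the arms, which also holds the affinities of their probes, stayed between 0.31 and 0.76 with a mean of 0.49 ± 0.16 (SD, n = 8). It was widest on the same arrays on which the 3p arm was not called, control replicate 1 (0.76) and db/db replicate 2 (0.70). The correlation of the arms' log2 levels, as a description, was 0.93 over the 8 arrays (0.76 for ranks) and 0.96 over the 6 arrays with both arms detected (0.77 for ranks); the points share their arrays and hairpins. In rank, db/db replicates 2 and 3 changed places between the arms.

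**Figure D2:**
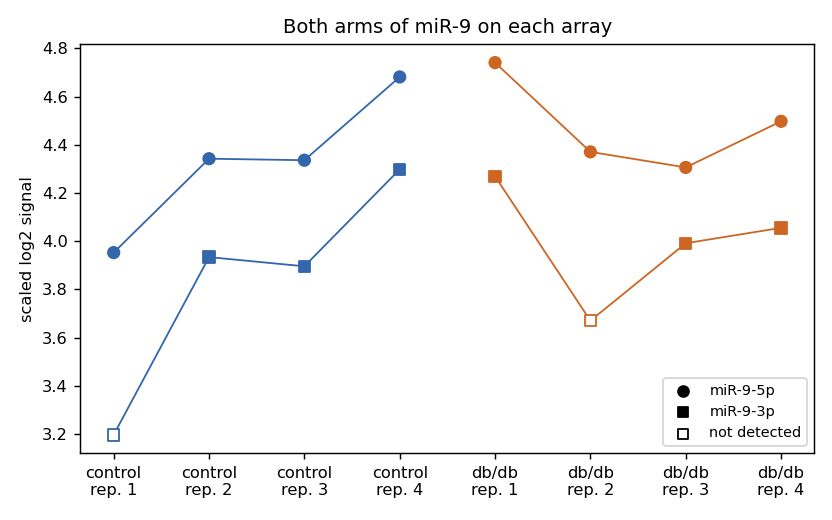
Scaled log2 signal (vertical axis) of miR-9-5p (circles) and miR-9-3p (squares) on each array (horizontal axis), controls in blue and db/db in orange; open squares were not detected, and lines join the arrays of a group only to guide the eye. Both arms are lowest on control replicate 1 (3.95 and 3.20) and high on control replicate 4 (4.68 and 4.30) and db/db replicate 1 (4.74 and 4.27).

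Among the tested miRNAs, the within-group SD of miR-9-5p (0.25 on the log2 scale) was the 41st largest of 316, against a median SD of 0.11. That of miR-7a-5p (0.07) was the 244th, that of miR-128-3p (0.13) the 131st and that of miR-1a-3p (0.19) the 66th. miR-9-5p was thus the most variable of the 4 and miR-7a-5p the most even.

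miR-7a-5p gave a processed signal of 23.3, 24.8, 22.6 and 25.1 on control arrays 1 to 4 and 27.0, 25.9, 26.9 and 26.1 on db/db arrays 1 to 4, so that before scaling every db/db array was above every control. Scaling removed this: the log2 level was 4.64 ± 0.09 in control and 4.66 ± 0.04 in db/db samples (SD, n = 4 each) and the groups overlapped. The log2 75th percentile that scaling made equal had been 8.40 to 8.67 in control and 8.57 to 8.73 in db/db samples. The scaled difference was 0.02 ± 0.05 (SE; 95% interval -0.10 to 0.14; limma adjusted p = 0.774). The sign of so small a value was not stable: it was below 0 under 6 of 22 alternative settings.

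The passenger arms of the 2 miR-7a loci differ in sequence and have probes of their own, which were not compared in level. miR-7a-1-3p, from the locus in Hnrnpk, was detected on all 4 control and 3 of 4 db/db arrays, at a log2 level of 3.32 ± 0.12 and 3.40 ± 0.11 (SD, n = 4 each). It lay above the 95th percentile of the negative control spots on 0 of 8 arrays, so that rule did not back the flag. The rule on spots well above background was not looked at for it. Its difference was 0.07 with an adjusted p of 0.477 (limma). miR-7a-2-3p, from the other locus, was not detected on any array, with processed signals of -1.72 to 0.560. Of the 11 other arms looked for over the 10 miRNAs, miR-7a-1-3p was the only one detected on any array; both 5p arms of miR-128 were among the undetected.

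miR-128-3p gave a processed signal of 19.3, 23.7, 20.1 and 22.6 on control arrays 1 to 4 and 25.2, 27.1, 22.6 and 24.0 on db/db arrays 1 to 4. Its scaled log2 level was 4.48 ± 0.11 in control and 4.56 ± 0.15 in db/db samples (SD, n = 4 each), with overlap between the groups. The highest array was db/db replicate 2 and the lowest control replicate 3. The difference was 0.08 ± 0.09 (SE; 95% interval -0.12 to 0.28; limma adjusted p = 0.476). It was below 0 under 2 of 22 alternative settings, without db/db replicate 2 (-0.05) and under normexp background correction (-0.05). The median of all tested miRNAs was then -0.08 and -0.07.

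A list of 23 other neuronal miRNAs and arms, drawn up with earlier results of these data known, gave 4 that were detected and tested, and none of the 4 passed, where 41.8% of all tested miRNAs did. miR-218-5p, high in motor neurons, was at a log2 level of 7.38 ± 0.06 in control and 7.28 ± 0.05 in db/db samples (difference -0.10; limma adjusted p = 0.136). miR-219a-5p, of oligodendrocytes, was at 5.28 ± 0.09 and 5.23 ± 0.10 (difference -0.05; limma adjusted p = 0.583). miR-551b-3p was at 4.72 ± 0.16 and 4.85 ± 0.18 (difference 0.13; limma adjusted p = 0.350; SD, n = 4 each throughout). The fourth was miR-7a-1-3p. Over these 4 the median difference was 0.01, against -0.02 over all 316 tested miRNAs. The 19 others were not detected on any array, among them miR-129-5p, miR-137-3p, miR-138-5p, miR-153-3p and miR-134-5p. The count depends on who was listed: 2 relatives of miR-129-5p outside the list, named after their values were seen, were called higher in db/db samples. miR-129-1-3p was at 4.12 ± 0.11 in control and 4.73 ± 0.09 in db/db samples (SD, n = 4 each, difference 0.61, limma adjusted p = 0.000424). miR-129b-5p was detected on 0 control and 4 db/db arrays. It entered the test only through the db/db group. Its control level averaged 1.69, near the value of 1.48 to which lower signals were raised, so no p-value is given.

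None of the pancreatic miRNAs was detected. miR-375-3p, which restrains insulin secretion in beta cells, gave processed signals of 3.20, 1.80, 0.328 and 3.30 on control arrays 1 to 4 and 3.93, 4.32, 4.74 and 2.98 on db/db arrays 1 to 4. All 8 values were below the median of the negative control spots of any array. The acinar miRNAs miR-216a-5p (-6.61 to -3.58) and miR-217-5p (-7.60 to -4.92) were below 0 throughout. In a list of 7 further pancreatic miRNAs and arms, including miR-216b-5p and miR-184-3p, 0 were detected on any array. No difference between the groups can be given for these miRNAs.

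miR-1a-3p was the one listed miRNA that passed the test, and it was higher in db/db kidneys. Its processed signal was 13.1, 17.4, 12.1 and 17.6 on control arrays 1 to 4 and 22.3, 22.9, 20.0 and 18.8 on db/db arrays 1 to 4, with every db/db array above every control. After scaling, the log2 level was 3.96 ± 0.23 in control and 4.32 ± 0.15 in db/db samples (SD, n = 4 each), and the groups then overlapped slightly, with control replicate 2 at 4.20 and db/db replicate 4 at 4.19. The difference was 0.37 ± 0.12 (SE; 95% interval 0.08 to 0.65), a 1.29-fold higher signal, with an adjusted p of 0.0448 (limma, Benjamini-Hochberg over 316 miRNAs). So 1 of the 4 tested miRNAs was called, where 41.8% of all 316 tested were called (24.4% higher and 17.4% lower in db/db), and the groups of none of the 4 stood apart, where 41.5% of all did. The median difference of the 4 was 0.12, against -0.02 over all tested.

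The call for miR-1a-3p was near the threshold, and leaving out 1 sample ended it in 6 of 8 cases. Without control replicate 1, 3 or 4 the limma adjusted p was 0.0931, 0.0928 or 0.0572, and without db/db replicate 1, 2 or 3 it was 0.0858, 0.177 or 0.0660. It remained called without control replicate 2 (0.0346) or db/db replicate 4 (0.0489). With 1 sample left out, the difference lay between 0.24, without db/db replicate 2, and 0.44, without control replicate 2. It was 0.62 (limma adjusted p = 0.0157) when the negative control signal was subtracted, an alternative chosen after seeing the data. Under normexp background correction, which adds an offset to every signal, it was -0.01, with the median of all tested miRNAs at -0.07. The controls lay in row 1 and the db/db samples in row 2 of the same slide, and for any of these differences the row and the genotype cannot be told apart.

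**Figure D3:**
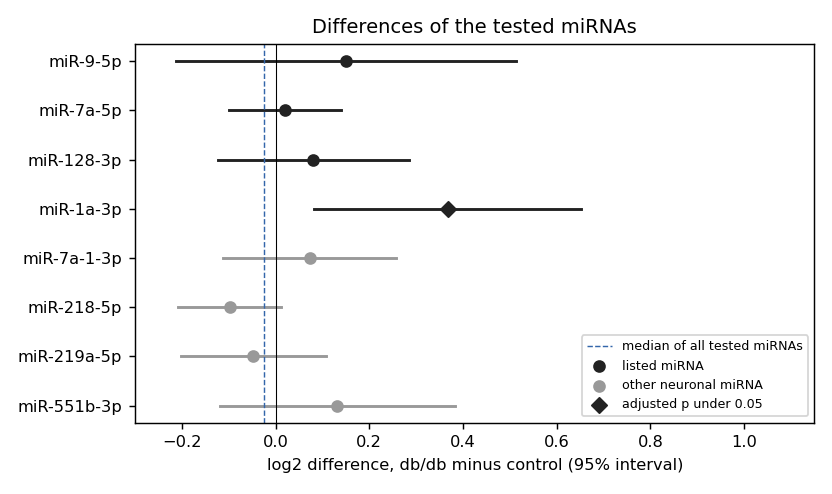
Log2 difference, db/db minus control (horizontal axis), with its 95% interval for the 4 tested miRNAs (black) and 4 other neuronal miRNAs (grey); diamonds passed an adjusted p of 0.05 and the dashed line is the median of all tested miRNAs (-0.02). Only the interval of miR-1a-3p (0.08 to 0.65) lies wholly on one side of 0.

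The signal of miR-1a-3p came mostly from the longer of its probes. The 21-base probe read 23.2, 31.6, 23.1 and 32.7 on control arrays 1 to 4 and 39.6, 41.2, 36.3 and 34.0 on db/db arrays 1 to 4. The 20-base probe read 1.13 to 4.98 over the 8 arrays, below the median of the negative control spots, so no difference is given for it. The scaled log2 difference of the longer probe was 0.34.

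**Figure D4:**
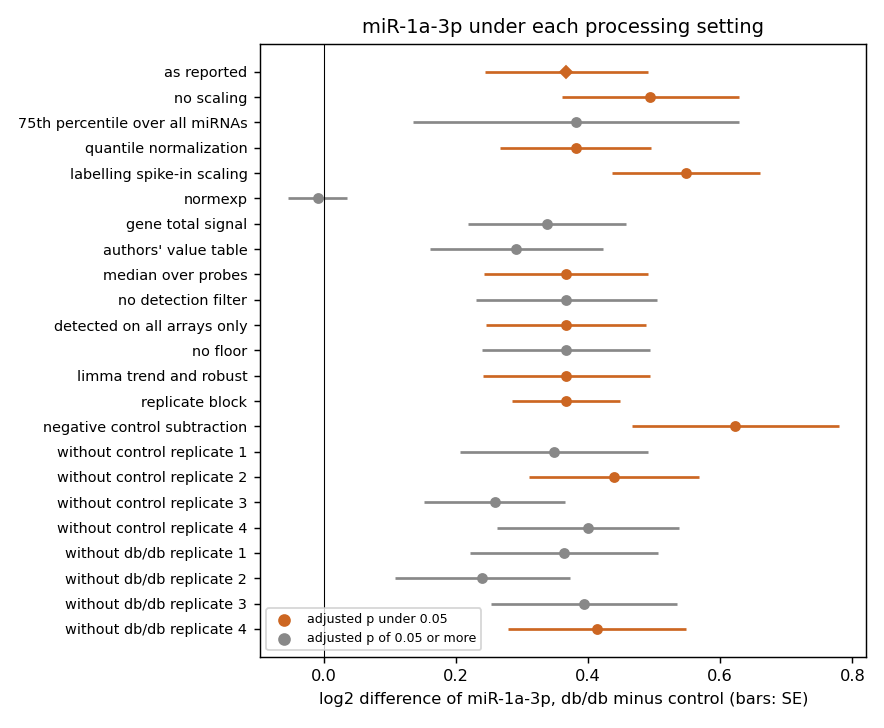
Log2 difference of miR-1a-3p, db/db minus control (horizontal axis), with its SE as reported (diamond) and under 22 alternative settings (circles); orange marks an adjusted p under 0.05. All values lie above 0 except that under normexp (-0.01), and 11 of the positive ones miss the threshold.

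The other muscle miRNAs were at or near the limit of detection. miR-133a-3p, which is transcribed with miR-1a, gave processed signals of 5.85, 6.99, 5.49 and 4.85 on control arrays 1 to 4 and 7.82, 9.47, 6.76 and 5.67 on db/db arrays 1 to 4, and was not detected on any array. Its best ratio of signal to error was 1.73 to 2.19 in control and 1.81 to 2.63 in db/db samples. Of a further list of 16 muscle miRNAs and arms, miR-133b-3p alone was detected, on 1 control and 3 db/db arrays, with a log2 level of 2.99 ± 0.13 and 3.32 ± 0.25 (SD, n = 4 each); it was not tested. The defining miRNAs of heart and skeletal muscle in that list, miR-206-3p, miR-208a-3p, miR-208b-3p and miR-499-5p, were undetected throughout. The smooth muscle miRNAs miR-143-3p (8.71 ± 0.08 and 8.66 ± 0.08) and miR-145a-5p (6.18 ± 0.12 and 6.11 ± 0.10) did not pass. The part of any other tissue in the miR-1a-3p signal was not tested.

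Some markers of kidney epithelium and of other cells also differed between the groups. Of the 11 kidney epithelium miRNAs, 7 rose in db/db samples and none fell, where 24.4% of all tested miRNAs rose and 17.4% fell; their median difference was 0.21 and that of miR-204-5p was 1.05. The hepatocyte miRNA miR-122-5p was detected on 0 control and 4 db/db arrays. All 5 miRNAs of the leukocyte list fell in db/db samples, with a median difference of -1.39. That median is the value of miR-150-5p, which was detected on 4 control and 1 db/db arrays and entered the test only through the controls. Its lowest processed signal, 4.85, was below the lowest median of the negative control spots (5.08), so the size of its difference is uncertain. The others in the list were detected on every array, with differences of -1.49 (miR-146a-5p) to -0.83 (miR-223-3p). Outside that list, and named after their values were seen, miR-155-5p (difference -0.22; limma adjusted p = 0.0646) and miR-146b-5p (-0.02; 0.891) did not pass. Both erythroid miRNAs varied by an SD of 0.91 to 1.13 within groups and did not pass. The endothelial miRNAs miR-126a-3p (difference -0.11, limma adjusted p = 0.0566) and miR-126a-5p (-0.15, 0.0567) did not pass either. The part of these cell types in the levels was not tested.

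For each miRNA detected on all arrays, the 2 others with the most similar profile over the 8 arrays were sought among 265 candidates, by the root mean square difference of log2 levels after centring each miRNA on its mean. The candidates left out the 10 miRNAs themselves and any not detected on all arrays, so miR-9-3p, at 0.15 from miR-9-5p, was not among them. Among these candidates miR-9-5p was closest to the arms of miR-10a, miR-10a-3p (0.12) and miR-10a-5p (0.16), against a median of 0.27 over the candidates. miR-1a-3p was closest to miR-29b-1-5p (0.11) and miR-193b-3p (0.12), with a median of 0.27. miR-7a-5p was closest to miR-98-5p and miR-221-3p (0.04 each), with a median of 0.13, and miR-128-3p to let-7f-1-3p and miR-149-5p (0.08 each), with a median of 0.15. These are descriptions over 8 arrays that share a slide.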

How the data were processed

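The authors deposited 1 scanner file per array of spot intensity values; per the file headers these come from version 12.0.3.1 of Agilent Feature Extraction, with spatial detrending on and background correction off. Processed signals can be negative. The authors also deposited a value table holding a linear ratio per miRNA and array. Over the 269 miRNAs detected everywhere it matched the files' gene total signal once miRNAs and arrays were centred (correlation 1.00), so higher means more signal, but the scaling of its columns is unknown here. Column medians were 1.11, 1.10, 1.10 and 0.980 (control) and 0.857, 1.01, 0.994 and 0.947 (db/db). The 5 undetected miRNAs share 1 set of values there. It served only as an alternative.

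Signals were averaged over spots that were not outliers, then over probes. Scaling made the 75th percentile equal between arrays, taken over the 269 miRNAs with a detection call everywhere, and values under 2.80 (1.48 on the log2 scale) were raised to it. Tests used limma 3.58.1 in R 4.3.3 on the 316 miRNAs detected on all 4 arrays of either group, 2-sided, with Benjamini-Hochberg adjustment and calls under 0.05. The number of arrays limits the precision. Only the limma test was checked on simulated data, drawn as normal log2 values. The averaging, scaling, floor and detection filter were not simulated. The miRNAs and lists were chosen with earlier results of these data known. All 10 miRNAs are named, with their other arms and listed companions. Seed sharers were sought only for the 6 with a RefSeq sequence, and nearest profiles only for the 4 detected on all arrays. The alternatives varied scaling, background, signal, filter, floor, variance model and samples.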

Additional observations from a re-analysis of the deposited data

How the results depend on the processing

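The count of called miRNAs (132) stayed within 1.5 times except with scaling to the 75th percentile over all miRNAs, detected or not (34); leaving out 1 sample gave 114 to 153. The share of calls higher in db/db was 58.3%, but 78.1% without scaling, 83.3% with spike-in scaling, 46.6% with quantile normalization, 72.2% without a detection filter and 45.1% without db/db replicate 2. The count of listed miRNAs called (1) was 3 with scaling to the labelling spike-ins, which moved the median of all tested miRNAs from -0.02 to 0.16; miR-7a-5p (0.20) and miR-128-3p (0.26) then passed, though such scaling shifts all miRNAs alike and their distances from the median (0.044 and 0.10) were those of the reported fit. It was 0 with the percentile over all miRNAs, normexp, the gene total signal, the authors' value table, no detection filter or no floor, and 0 to 1 when 1 sample was left out. Differences changed sign under normexp for miR-9-5p (-0.037), miR-7a-5p (-0.065), miR-128-3p (-0.051) and miR-1a-3p (-0.0093). The median of all tested miRNAs moved too, to -0.067. In this order the 4 lay 0.030, 0.0022, 0.016 and 0.058 above it, against 0.17, 0.044, 0.10 and 0.39 in the reported fit. For miR-7a-5p the sign also changed with the gene total signal (-0.17) and the value table (-0.22). Leaving out 1 sample gave -0.054 (without db/db replicate 2) to 0.047 for miR-7a-5p, which was below 0 without control replicate 3 (-0.018) or 4 (-0.0035) too, and -0.049 (without db/db replicate 2) to 0.13 for miR-128-3p. Without db/db replicate 2 the median of all tested miRNAs was -0.084. The causes were not tested. Deviations of same-numbered samples, which share a slide column, had no common direction (correlations -0.43, 0.41, -0.05 and -0.07 for replicates 1 to 4). The replicate block gave 144 calls, 1 of them a listed miRNA. It changed the SE from 0.088 to 0.034 for miR-128-3p, 0.12 to 0.082 for miR-1a-3p, 0.052 to 0.050 for miR-7a-5p and 0.16 to 0.18 for miR-9-5p. Subtracting the negative controls, chosen after seeing the data, gave 129 calls, 1 of them a listed miRNA. The level order of the miRNAs was not run, since signals of different probes are not comparable. Signal over background limits the 5 undetected miRNAs to a bound.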
